A study of Homo sapiens with 19 samples.

Results

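The amino acid carriers described here are all genes of the RNA-seq count table whose symbols begin with SLC1A, SLC3A, SLC6A, SLC7A, SLC36A, SLC38A or SLC43A, which gave 61 of the 23441 symbols in the table, with 2 symbols of these families not analysed here. The genes were chosen by name and not by any measured value. They were followed in pools of 786-O cells, an established clear cell renal carcinoma line without functional VHL in which HIF-2α accumulates in the presence of oxygen and the HIF1A transcripts are truncated. The control cells were infected with the empty pRRL virus, the HIF-1α re-expressing cells with pRRL-HIF-1α and the HIF-2α overexpressing cells with pRRL-HIF-2α, so that all 3 pools share the VHL defect and endogenous HIF-2α. The virus also carries EGFP behind an internal ribosome entry site, and the infected cells were kept as pools and not as clones. RNA-seq gave 3 libraries per pool, with totals between 27852754 and 54287621 counts, and ChIP-seq gave 1 library per antiserum and pool, of which 7 have a list of peaks.

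Amino acid carriers differ in what they move and in what drives them. SLC3A2 is the heavy chain that brings light chains of the SLC7 family to the plasma membrane, among them SLC7A5, the exchanger of large neutral amino acids also known as LAT1. SLC1A5 exchanges glutamine and other neutral amino acids, SLC38A1 and SLC38A2 take up glutamine and other neutral amino acids together with sodium, SLC7A1 and SLC7A2 carry arginine and lysine, and SLC1A1 takes up glutamate and aspartate. SLC6A9 carries glycine, SLC6A6 taurine and SLC6A8 creatine, and the SLC36 and SLC38 families include carriers of the lysosomal membrane. HIF-1α and HIF-2α bind DNA with HIF-1β at a core that reads ACGTG or GCGTG on either strand.

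Of the 61 genes, 39 passed the filter on low counts and were tested, and 22 did not. Among the 22 were 6 without a count in any library (SLC6A2, SLC6A5, SLC6A11, SLC6A18, SLC6A19 and SLC7A13), and the other 16 had at most 19 counts in any library. The limit that a count of 0 allows, taken as 3 counts per library, was 0.0558 to 0.105 CPM, the counts scaled to library size. The 39 tested genes included 3 pseudogenes, SLC7A5P1, SLC7A5P2 and SLC6A10P, which resemble SLC7A5 and SLC6A8 closely enough that reads may be divided between copies, and SLC7A6OS, which overlaps SLC7A6 on the opposite strand. The strand setting of the counting was not given in the sources used here, so reads of this overlapping pair may not be separated.

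Sequences with a HIF core near the midpoints of peaks at these genes are shown first. Whether HIF binds through these cores was not tested. Each has 29 bases of GRCh37, read on the strand given, with the HIF core in capitals, and lies within 150 bp of the midpoint of a peak. The first set comes from peaks of the HIF-1α antiserum in HIF-1α re-expressing cells near genes that were tested for expression.
SLC1A1, chr9:4490624-4490652, minus strand: tcggccgtgcgcGCGTGggctgggcgacc
SLC38A1, chr12:46662197-46662225, minus strand: tcatctctgcggGCGTGaaagcagagaga
SLC38A2, chr12:46766059-46766087, minus strand: tgggcgggggccGCGTGcctgcacggtgc
SLC3A2, chr11:62623550-62623578, plus strand: cgtcctacgggaGCGTGctggctcaccga
SLC6A8, chrX:152954908-152954936, plus strand: agcgatgggcacGCGTGtgtcctgtgact
SLC7A6, chr16:68299117-68299145, plus strand: gctggggaacccGCGTGcccctggtgatt
SLC6A6, chr3:14444119-14444147, minus strand: cttcctgacctcGCGTGtctgttgtctga
The second set comes from peaks of the HIF-2α antiserum. The first line for SLC7A5 lay within 150 bp of midpoints of both HIF-1α and overexpressed HIF-2α, that of SLC43A3 in the HIF-1α and HIF-2α lists of HIF-1α re-expressing cells, and that of SLC1A7 in both control and HIF-2α overexpressing cells and at HIF-1α.
SLC7A5, chr16:87895003-87895031, plus strand: cagactccccagGCGTGgctttgtgctcc
SLC7A5, chr16:87903226-87903254, minus strand: gccggacgacgcACGTGctccgagctggg
SLC43A3, chr11:57192413-57192441, minus strand: agaaggttcgggACGTGatctcacacaca
SLC1A7, chr1:53612027-53612055, minus strand: cgagctgggaagACGTGtcagggagatta
SLC6A6, chr3:14514351-14514379, plus strand: gtgctccctggaGCGTGcgaggggctggg
SLC7A1, chr13:30163468-30163496, plus strand: ggtggagtgtggGCGTGgctggatggtga
SLC7A1, chr13:30163623-30163651, minus strand: agctgcgctgggACGTGgccagtgtcagg
SLC1A5, chr19:47289060-47289088, minus strand: ctggaattactgGCGTGagccaccgcacc
The core of SLC3A2 lay in an exon of SLC3A2, those of SLC1A1, SLC6A8 and SLC6A6 (the line of the first set) in exons of their own genes, and the other cores shown overlapped no annotated exon. Among all peaks of a list, 45.8% (HIF-2α in HIF-2α overexpressing cells) to 68.3% (HIF-1β in HIF-1α re-expressing cells) held a core in the same window, so a core at a carrier gene is a description and not a site shown to be used. In the 300-base promoters of RefSeq (250 bases before to 50 after each start, from GRCh38.p14), a core was found in 29 of 44 carrier promoters and in 48.4% of all 35116 promoters. The carriers were counted once per symbol, while the 35116 promoters were all entries, not limited to genes of the count table. The shares therefore describe unlike sets, and no enrichment was tested.

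A pair of wider windows shows the intronic HIF-2α sites. The centre of the HIF-2α peak of HIF-2α overexpressing cells in the body of SLC7A1, at chr13:30163385-30163684 on the plus strand, holds 2 cores and overlaps no annotated exon. Cores on either strand are in capitals as they read on the plus strand.
SLC7A1 window: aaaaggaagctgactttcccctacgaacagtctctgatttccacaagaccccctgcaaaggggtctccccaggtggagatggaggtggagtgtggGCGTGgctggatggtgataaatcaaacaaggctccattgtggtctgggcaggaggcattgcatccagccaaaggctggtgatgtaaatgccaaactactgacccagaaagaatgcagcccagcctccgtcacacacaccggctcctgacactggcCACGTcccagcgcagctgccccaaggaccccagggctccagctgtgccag
The centre of the HIF-2α peak of control cells in the body of SLC6A6, at chr3:14514118-14514417 on the plus strand, holds 1 core and also overlaps no annotated exon.
SLC6A6 window: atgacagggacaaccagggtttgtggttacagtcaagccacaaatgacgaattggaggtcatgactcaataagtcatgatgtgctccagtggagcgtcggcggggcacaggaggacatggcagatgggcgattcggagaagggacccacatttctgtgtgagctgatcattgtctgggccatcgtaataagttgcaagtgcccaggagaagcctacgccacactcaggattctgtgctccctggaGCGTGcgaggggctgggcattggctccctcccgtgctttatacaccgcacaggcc

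Levels were compared between carriers after division by exon length. Divided by exon length, the mean over the 9 libraries was highest for SLC7A5, at 255 CPM per kb, and its heavy chain SLC3A2 followed at 248 CPM per kb. The ratio of SLC7A5 to SLC3A2 on this per-length scale lay between 0.654 and 1.77 in single libraries, so neither stood consistently above the other. SLC1A5 had a mean level of 132 CPM per kb, SLC43A3, which carries purine bases, 104, SLC38A2 85.2, SLC6A8 77.6, SLC6A6 65.4 and SLC38A1 64.5 CPM per kb. The libraries of these last 4 genes overlapped one another, as the plot of levels shows. Of all 61 genes, 20 had a mean of at least 10 CPM and 12 of at least 100 CPM, while 12 tested genes stayed under a mean of 1 CPM. Of the glutamate and aspartate carriers, 2 of 5 were tested and only SLC1A1 was above 10 CPM, whereas 8 of 10 SLC38 genes and all 3 SLC43 genes were tested. SLC7A5 made up 5.25 to 30.5% of the summed CPM of the 61 genes, and the lowest share belonged to HIF-1α re-expressing library 3.

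**Figure D1:**
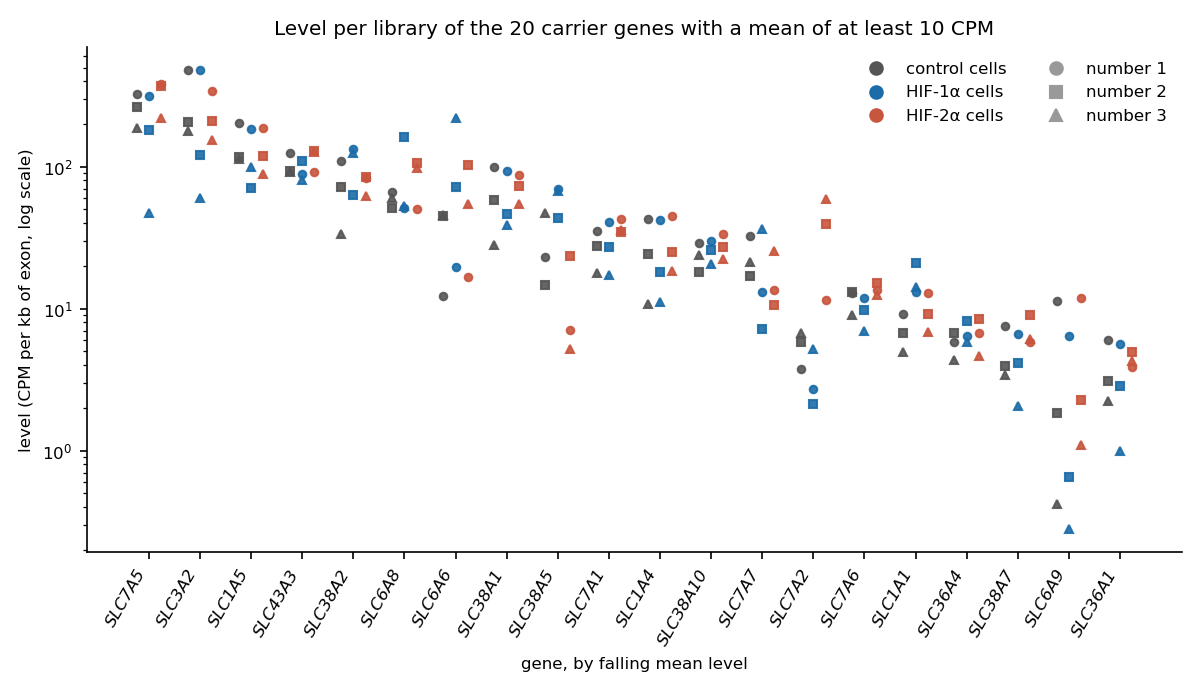
Level of the 20 carrier genes with a mean of at least 10 CPM, as CPM per kb of exon on a log scale, with 1 point per library, coloured by cell pool and shaped by replicate number. SLC7A5 and SLC3A2 lead with means of 255 and 248 CPM per kb, SLC7A2 shows the HIF-2α overexpressing libraries above the rest, and SLC6A9 shows the libraries of number 1 far above the others.

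The labels were first checked against the virus. HIF1A was at 30.4, 36.7 and 152 CPM in control cells, 172, 1680 and 473 CPM in HIF-1α re-expressing cells and 15.3, 30.4 and 17.5 CPM in HIF-2α overexpressing cells. EPAS1, which encodes HIF-2α, was at 456, 224 and 162 CPM in control cells, 575, 627 and 397 CPM in HIF-1α re-expressing cells and 946, 3240 and 880 CPM in HIF-2α overexpressing cells. In every library the gene carried by the virus was above the levels of the other 2 pools, although the library labelled control 3 had more HIF1A than the other control libraries, and more of CA9, a HIF-1α target (14.3 CPM, against 0 and 0.171). Renal carcinoma markers (8 of 8) had counts in every pool, with PAX8 at 176 to 364 CPM and PAX2 at 8.53 to 26.6 CPM. Of these 8, CA9 stayed under 1 CPM in HIF-2α overexpressing cells (0.12, 0.105 and 0.694 CPM). The 8 markers of blood, endothelium, liver and muscle all stayed under 1 CPM. Of them, 3 had no count in control cells, 2 in HIF-1α re-expressing cells and 3 in HIF-2α overexpressing cells. The libraries that share a replicate number also share deviations from the means of their pools, so the number is treated as a pairing and values with it as a block are given wherever they change a call. Nothing states that the libraries come from separate cultures, and p-values then measure only the spread between these libraries, which may be technical. In bulk RNA a smaller share of cells with a transcript and less transcript per cell cannot be told apart.

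Re-expression of HIF-1α was compared with control cells to ask which carriers follow HIF-1α. SLC1A1, the glutamate and aspartate carrier, was at 34.0, 25.0 and 18.3 CPM in control libraries 1 to 3, and at 48.8, 78.2 and 52.5 CPM in the HIF-1α re-expressing libraries. All HIF-1α re-expressing libraries were above all control libraries, and the ratio within a replicate number was 1.43, 3.13 and 2.86. The fit without the block gave a log2 fold change of 1.21 (SE 0.318, adjusted p = 0.150), and with the replicate block it was 1.26 (SE 0.249, adjusted p = 0.0358). SLC1A1 was the only 1 of the 39 tested carriers that passed with the block, where 7.96% of all 14225 genes passed, and no carrier and no other gene passed without it (0% of all genes, edgeR, where an unadjusted p under 0.05 was reached by 1586 genes that were higher, 2 carriers among them, and 1171 that were lower). Within the block, leaving out number 1 kept the call (log2 fold change 1.57, adjusted p = 0.0404), while leaving out number 2 (1.03, adjusted p = 0.203) or number 3 (1.11, adjusted p = 0.150) ended it.

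Beside SLC1A1, the HIF-1α re-expressing and control libraries were apart only for SLC36A2, a carrier of small neutral amino acids that stayed under 1 CPM, so that 2 of 39 carriers had groups that did not overlap, against 24.1% of all genes. SLC6A6, the taurine carrier, was at 79.6, 292 and 295 CPM in control cells and at 127, 469 and 1430 CPM in HIF-1α re-expressing cells. It was higher within each of the 3 numbers, by ratios of 1.60, 1.61 and 4.84, but the groups overlapped, and the log2 fold change of 1.60 (SE 0.868, adjusted p = 0.330), or 1.31 with the block (SE 0.417, adjusted p = 0.0744), did not pass. SLC7A5 was at 1490, 1210 and 852 CPM in control cells and at 1430, 824 and 214 CPM in HIF-1α re-expressing cells. Its libraries overlapped between the pools and its log2 fold change of -0.53 (SE 0.549, adjusted p = 0.614) did not pass, nor did that of its heavy chain SLC3A2, -0.39 (SE 0.683, adjusted p = 0.782). Both were below control within all 3 numbers, SLC7A5 by ratios of 0.956, 0.679 and 0.251 and SLC3A2 by ratios of 0.996, 0.585 and 0.338, and with the block the log2 fold changes were -0.79 (SE 0.355, adjusted p = 0.154) and -0.72 (SE 0.322, adjusted p = 0.154). The same HIF-1α re-expressing library, number 3, was the lowest of all 9 for both chains, at 214 CPM of SLC7A5 and 114 CPM of SLC3A2, and the highest for SLC6A6.

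Among the glutamine carriers, SLC1A5 was at 590, 335 and 325 CPM in control cells, 537, 344 and 257 CPM in HIF-2α overexpressing cells and 532, 204 and 288 CPM in HIF-1α re-expressing cells, with a log2 fold change of -0.29 (SE 0.411, adjusted p = 0.726). SLC38A2 was at 526, 344 and 161 CPM in control cells and at 639, 304 and 600 CPM in HIF-1α re-expressing cells (401, 407 and 296 CPM with HIF-2α), with a log2 fold change of 0.58 (SE 0.420, adjusted p = 0.454). SLC38A1 was at 807, 470 and 227 CPM in control cells, 759, 379 and 313 CPM in HIF-1α re-expressing cells and 708, 596 and 443 CPM in HIF-2α overexpressing cells, and against control its log2 fold change with HIF-1α was -0.05 (SE 0.465, adjusted p = 0.961). The libraries of the pools overlapped for all of these genes. Over all 39 carriers the median log2 fold change was -0.12, beside 0.04 over all genes, with 18 carriers above 0 and 21 below. Without control library 1 the median of the carriers was 0.28, with 29 above 0, beside 0.08 over all genes, and without HIF-1α library 3 it was 0.14, with 24 above 0.

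The remaining carriers with a HIF-1α or HIF-2α peak, or among the highest in level, passed no test in either direction. SLC43A3 was at 328, 245 and 240 CPM in control cells, 232, 288 and 211 CPM in HIF-1α re-expressing cells and 241, 336 and 333 CPM in HIF-2α overexpressing cells, so that all pools overlapped. SLC6A8, the creatine carrier, was at 263, 202 and 236 CPM in control cells, 202, 632 and 209 CPM in HIF-1α re-expressing cells and 198, 416 and 388 CPM in HIF-2α overexpressing cells, and its higher mean with HIF-1α came from library 2. SLC38A10 was at 130, 80.8 and 108 CPM in control cells, 135, 116 and 92.4 CPM in HIF-1α re-expressing cells and 150, 122 and 99.8 CPM in HIF-2α overexpressing cells, with all pools overlapping.

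SLC7A6, a light chain that pairs with SLC3A2, was at 80.1, 81.8 and 56.1 CPM in control cells, 74.0, 61.7 and 43.5 CPM in HIF-1α re-expressing cells and 84.5, 94.6 and 78.2 CPM in HIF-2α overexpressing cells. It was below control in 3 of 3 pairs with HIF-1α and above it in 3 of 3 pairs with HIF-2α, and the HIF-1α and HIF-2α libraries did not overlap, without passing (log2 difference -0.55 with the block, adjusted p = 0.0972). SLC3A1, the heavy chain of the cystine carrier of the kidney, was at 0.103, 0.711 and 1.56 CPM in control cells, 0.0735, 0.329 and 0.707 CPM in HIF-1α re-expressing cells and 0.0241, 0.314 and 0.411 CPM in HIF-2α overexpressing cells. Its levels were thus near the floor in the libraries of number 1. The pseudogene SLC7A5P2 was at 0.517, 0.882 and 0.469 CPM in control cells, 1.10, 1.44 and 0.782 CPM in HIF-1α re-expressing cells and 0.891, 1.15 and 0.539 CPM in HIF-2α overexpressing cells, with reads that may belong to SLC7A5.

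HIF-2α was overexpressed to ask which carriers follow additional HIF-2α. SLC7A2, a carrier of arginine and lysine, was at 28.6, 44.6 and 51.3 CPM in control libraries 1 to 3, at 20.8, 16.3 and 39.5 CPM in HIF-1α re-expressing libraries and at 87.8, 302 and 452 CPM in HIF-2α overexpressing libraries. Every HIF-2α overexpressing library was above every other library, and the ratio to the control library of the same number was 3.07, 6.75 and 8.80. Against control cells the log2 fold change was 2.75 (SE 0.563, adjusted p = 0.490) without the block and 2.57 (SE 0.368, adjusted p = 0.0372) with it. SLC7A2 was 1 of 39 carriers to pass with the block, against 0.267% of all genes, and none passed without it (0% of all genes, edgeR, where an unadjusted p under 0.05 was reached by 476 genes that were higher, 2 carriers among them, and 362 that were lower, 3 carriers among them). Within the block, leaving out number 1 kept the call (2.94, adjusted p = 0.0443), and leaving out number 2 (2.43, adjusted p = 0.0774) or number 3 (2.28, adjusted p = 0.168) ended it. No list had a peak within 50 kb of a start site of SLC7A2, and the nearest peak of HIF-2α in HIF-2α overexpressing cells was 168 kb upstream.

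SLC7A1, which also carries arginine and lysine, was at 261, 202 and 130 CPM in control cells and at 315, 256 and 262 CPM in HIF-2α overexpressing cells. These groups overlapped and the log2 fold change of 0.49 (SE 0.342, adjusted p = 0.842) did not pass, also with the block (0.56, SE 0.212, adjusted p = 0.293). SLC7A5 was at 1730, 1690 and 1010 CPM in HIF-2α overexpressing cells, above the control library of the same number in 3 of 3 pairs by ratios of 1.16, 1.40 and 1.19, and its log2 fold change of 0.32 (SE 0.548, adjusted p = 0.933) was within the spread between libraries. SLC3A2 was at 643, 396 and 293 CPM, below control in 2 of 3 pairs. SLC1A1 was above control in 3 of 3 pairs, by ratios of 1.40, 1.35 and 1.38, although its log2 fold change of 0.46 (SE 0.315, adjusted p = 0.842) did not pass. In HIF-2α overexpressing against control cells 6 of 39 carriers had groups that did not overlap, against 11.2% of all genes. They were SLC6A3, SLC7A14, SLC7A2 and SLC7A5P1, which were higher, and SLC38A11 and SLC6A12, which were lower, and of these only SLC7A2 was above a mean of 2 CPM over the 9 libraries. Apart from SLC7A2 and SLC38A11, these genes and SLC36A2 were chosen after their values were seen. The median log2 fold change of the 39 carriers was 0.20, beside -0.02 over all genes, with 26 carriers above 0. Without control library 3 the median of the carriers was -0.05, with 19 above 0.

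**Figure D2:**
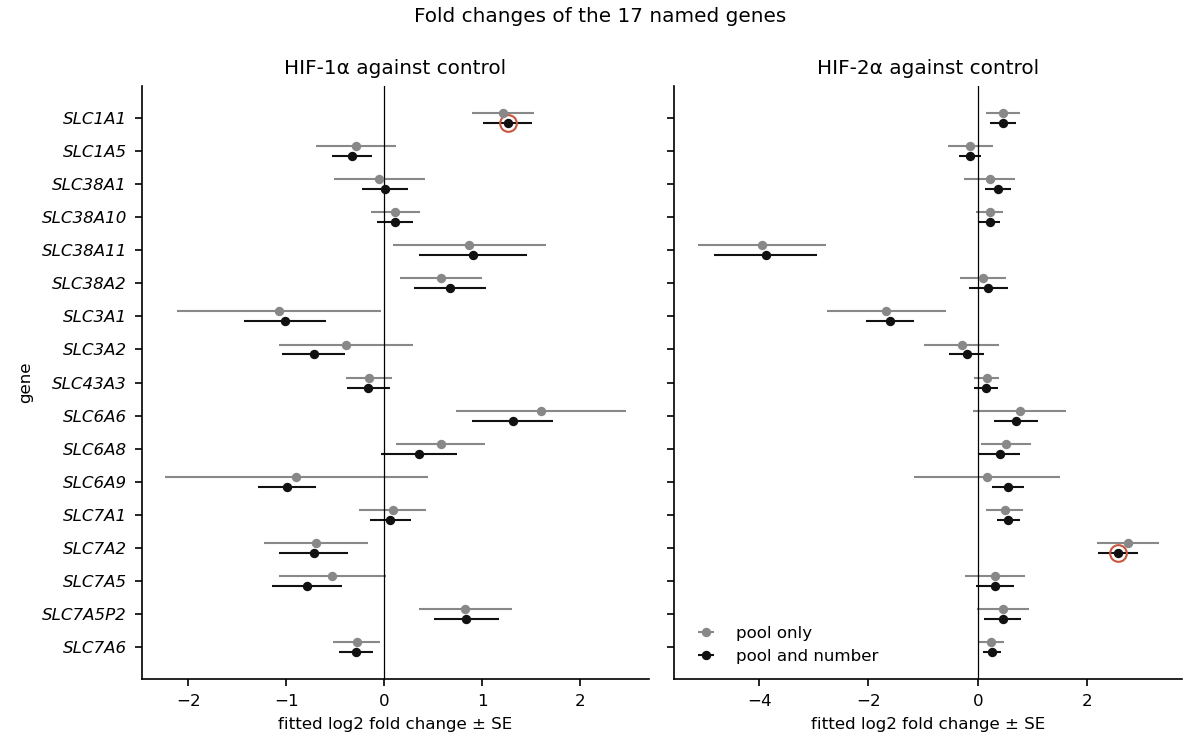
Fitted log2 fold change with its standard error for the 17 named carriers in HIF-1α re-expressing (left) and HIF-2α overexpressing cells (right) against the same control libraries, in the fits with the pool only (grey) and with pool and replicate number (black). Circles mark an adjusted p under 0.05, reached by SLC1A1 on the left (1.26) and by SLC7A2 on the right (2.57), both with the number in the fit.

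The direct comparison of the pools asked where the carriers distinguish HIF-1α from HIF-2α. The difference is taken between HIF libraries that the comparisons above also used. The control libraries still enter through the joint fit of all 9 libraries, in its estimate of the spread and in the terms of the block. SLC7A2 was lower in HIF-1α re-expressing than in HIF-2α overexpressing cells within each number, the latter being 4.22, 18.5 and 11.4 times the former. The log2 difference, HIF-1α minus HIF-2α, was -3.45 (SE 0.580, adjusted p = 0.0546) without the block and -3.29 (SE 0.382, adjusted p = 0.00348) with it. With the block the call was kept when number 1 (-3.84, adjusted p = 0.0129), number 2 (-2.87, adjusted p = 0.00952) or number 3 (-3.16, adjusted p = 0.0224) was left out. SLC7A2 was 1 of 3 carriers that passed with the block, against 5.93% of all genes, and no carrier passed without it, against 0.0492% of all genes.

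SLC6A9, the glycine carrier GLYT1, was the second of the 3. It was at 36.5, 5.92 and 1.35 CPM in control libraries 1 to 3, at 20.5, 2.08 and 0.893 CPM in HIF-1α re-expressing libraries and at 38.4, 7.29 and 3.52 CPM in HIF-2α overexpressing libraries. The pools overlapped widely, because the numbers differed more than the pools, while within each number the order was the same, with HIF-2α overexpressing cells highest and HIF-1α re-expressing cells lowest. The log2 difference was -1.07 (SE 1.35, adjusted p = 0.764) without the block and -1.55 (SE 0.298, adjusted p = 0.0199) with it, and leaving out any number ended the call (adjusted p = 0.0577 to 0.0992).

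SLC38A11, an SLC38 member without a settled substrate, was the third and was near the limit of detection. It had 2, 6 and 13 counts in control libraries, 5, 22 and 19 counts in HIF-1α re-expressing libraries and 0, 0 and 1 count in HIF-2α overexpressing libraries. Scaled to library size, the ratio of HIF-1α re-expressing to HIF-2α overexpressing cells was 37.5, with an exact 95% interval of 6.40 to 1510 that covers counting error only. With the block its adjusted p was 0.0163, and without number 1 (0.0726) or number 2 (0.101) it did not pass. With number 3 left out it was not tested.

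In the same comparison 7 of 39 carriers had groups that did not overlap, against 19.2% of all genes. SLC38A5, a carrier of glutamine and other neutral amino acids, was at 140, 87.3 and 135 CPM in HIF-1α re-expressing cells, 14.2, 46.5 and 10.3 CPM in HIF-2α overexpressing cells and 45.8, 29.2 and 94.8 CPM in control cells. Its log2 difference was 2.36 (SE 0.596, adjusted p = 0.121) in edgeR without the block, 2.42 (SE 0.638, adjusted p = 0.0587) with it, and 2.32 (SE 0.571, adjusted p = 0.00286) in DESeq2. SLC6A3, the dopamine carrier, passed in DESeq2 too (log2 difference -2.42, SE 0.735, adjusted p = 0.0283) but stayed under 4 CPM in every library. SLC38A5 and SLC6A3 were chosen after their values were seen. DESeq2 called 4 carriers here, SLC38A5 and SLC38A11 higher in HIF-1α re-expressing cells and SLC6A3 and SLC7A2 lower, against 4.44% of all genes. In DESeq2 SLC1A1 was called in HIF-1α re-expressing against control cells (adjusted p = 0.0263, against 5.28% of all genes) and SLC7A2 in HIF-2α overexpressing against control cells (adjusted p = 3.24e-04, against 0.413%).

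**Figure D3:**
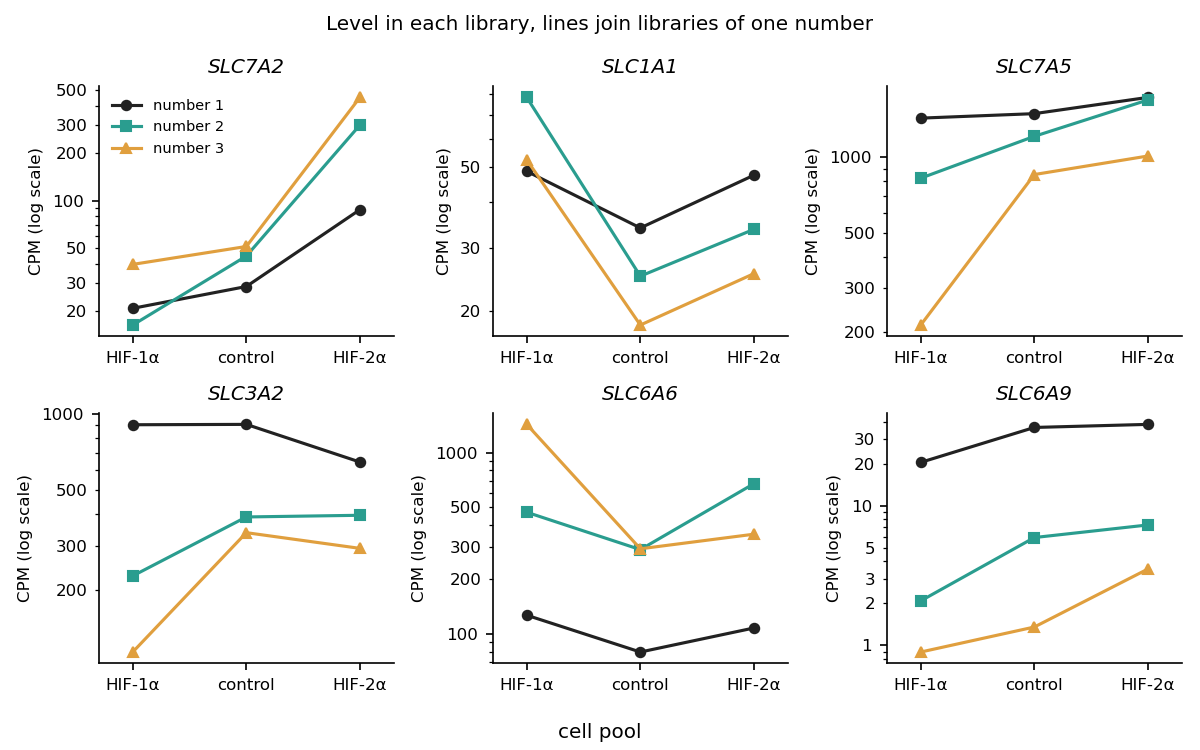
CPM of 6 carriers on a log scale in HIF-1α re-expressing, control and HIF-2α overexpressing cells, with a line joining the libraries of each replicate number. SLC7A2 climbs to the HIF-2α overexpressing cells on all 3 lines, SLC1A1 is lowest in control cells on all 3, and for SLC6A9, from 36.5 to 1.35 CPM in control cells, the lines lie apart while running side by side.

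The replicate number moved several carriers further than the pool did. In the fit with the block, the number itself passed an F test at an adjusted p under 0.05 for 8 of 39 carriers, against 15.4% of all genes, a test that was added after the data were seen. The 8 were SLC1A4, SLC1A5, SLC38A1, SLC3A1, SLC3A2, SLC6A10P, SLC6A6 and SLC6A9. For SLC6A9 the fitted log2 ratio of number 3 to number 1 was -4.21 (adjusted p = 3.70e-04), and SLC1A4, an exchanger of alanine, serine and cysteine, went from 196, 192 and 204 CPM in the libraries of number 1 to 49.6, 50.6 and 84.3 CPM in those of number 3 (adjusted p = 0.00322). SLC3A2 had a log2 ratio of -1.86 (adjusted p = 0.0133), SLC38A1 of -1.26 (adjusted p = 0.0214) and SLC1A5 of -0.93 (adjusted p = 0.0204), while SLC6A6 had one of 2.46 in the opposite direction (adjusted p = 0.0147). SLC7A5 had a log2 ratio of -1.39 that did not pass (adjusted p = 0.0617).

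Over the 9 libraries, the number held a median of 43.3% of the variance of log2 CPM of the 39 carriers and the pool 27.5%, beside 35.9% and 32.6% over all genes. The number held more than the pool for 25 of 39 carriers (64.1%) and for 52.5% of all genes. At 89.7% the share of the number was highest for SLC1A4, while SLC7A2 had 80.3% of its variance between pools and SLC1A1 68.1%. In 17 of 39 carriers the library of number 1 was above that of number 3 in every pool (43.6%, against 23.2% of all genes), and in 9 it was below in every pool (23.1%, against 23.5%). What the number stands for is not given in the labels, and its part in the levels of single carriers was not tested beyond these values.

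**Figure D4:**
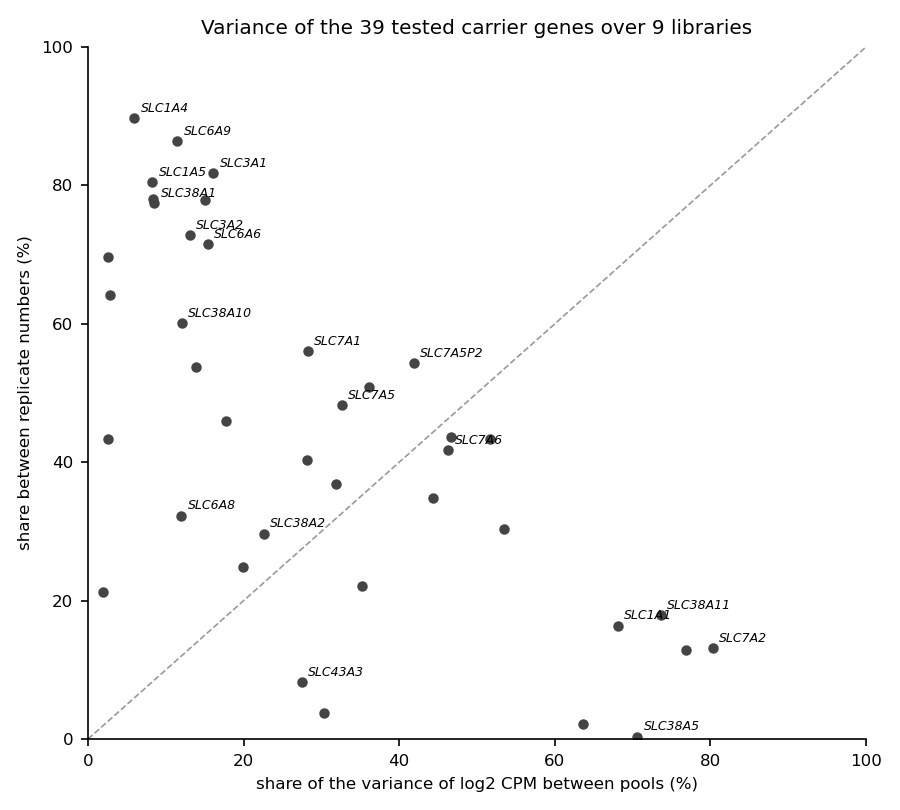
Share of the variance of log2 CPM over the 9 libraries that lies between the 3 pools (horizontal axis, %) and between the 3 replicate numbers (vertical axis, %), with 1 point per tested carrier and a dashed line of equal shares. SLC1A4, SLC6A9, SLC3A1 and SLC1A5 lie at 80.5% or more for the number, and SLC7A2 lies furthest to the right with 80.3% for the pool.

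Peaks were assigned to a carrier when the midpoint lay within 10 kb of any annotated start site of its transcripts. Of the 61 carriers, 23 had a peak in at least 1 of the 7 lists, beside 38.9% of all genes, and 16 in a list of HIF-1α or HIF-2α, beside 27.6% of all 22042 genes with a position. Among the 39 tested carriers 14 had a HIF-1α or HIF-2α peak, beside 39.2% of tested genes. With 1 library per antiserum and pool there is no replicate of any list, the lists hold positions without scores, and their depth is unknown, so that a missing peak is not a missing factor.

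By list, HIF-1α in HIF-1α re-expressing cells had peaks at 12 of the 61 carriers (23.9% of all genes), 11 of them tested (34.6% of tested genes). HIF-1β in the same cells had peaks at 17 carriers (28% of all genes), 16 of them tested (40.8%), and HIF-2α in the same cells at 5 (3.04%), 4 of them tested (4.21%). In control cells HIF-2α had peaks at 3 carriers (3.75%), 2 of them tested (5.33%), and HIF-1β at 14 (18.3%), 13 of them tested (25.7%). In HIF-2α overexpressing cells HIF-2α had peaks at 9 carriers (10.4%), 7 of them tested (14.5%), and HIF-1β at 11 (11.3%), 10 of them tested (16.2%).

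SLC7A5 was the only carrier with a peak in all 7 lists, and held 18 peaks in all. HIF-2α was found 1.52 kb upstream of its start in control cells, 1.21 kb upstream in HIF-1α re-expressing cells and 0.019 kb upstream in HIF-2α overexpressing cells, and in each of these lists also inside the gene, 10.5, 8.60 and 8.16 kb past the start. HIF-1α lay inside the gene as well, 8.15 kb and 15.2 kb past the start. The core printed first for SLC7A5 lies at this intronic cluster. The central 300 bases of the upstream HIF-2α peak of control cells held no core. As given above, the RNA of SLC7A5 did not pass a test in any comparison.

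SLC6A6 had 12 peaks over 6 lists and SLC43A3 8 over 6. In SLC6A6 HIF-1α peaks lay 0.178 and 70.7 kb past the first start, and HIF-2α lay 70.2 kb past it in control cells and 70.1 kb in HIF-2α overexpressing cells, near a start of a shorter transcript, where the window printed above was read. A further HIF-2α peak, 29.6 kb past the start, was listed in HIF-2α overexpressing cells alone among the lists of HIF-2α. SLC7A1 had HIF-2α peaks 6.27 kb past its start in HIF-1α re-expressing cells and 6.29 kb in HIF-2α overexpressing cells, with no HIF-1α peak within 10 kb of a start site. SLC1A7, a glutamate carrier with 7 counts over all 9 libraries, had peaks in 6 lists, all 3.34 to 3.72 kb upstream of the gene.

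HIF-1α without HIF-2α was listed at the start sites of SLC1A1 (0.23 kb downstream), SLC38A1 (0.266 kb), SLC38A2 (0.203 kb), SLC6A8 (0.12 kb), SLC7A6 (0.303 kb upstream) and SLC3A2 (at the start). Among them SLC1A1 alone was called in HIF-1α re-expressing against control cells, with the replicate block, and in the same fit the log2 fold change of the other 5 lay between -0.72 (SLC3A2) and 0.67 (SLC38A2) without passing. Control cells already had a listed HIF-1β peak within 10 kb of a start of SLC1A1, SLC38A1, SLC6A8 and SLC7A6. At SLC3A2 no list held a HIF-1β peak within that distance. The HIF-1α peak at the start of SLC3A2 also held a core 38 bp upstream, where the surrounding bases overlap an exon of SNHG1. Which of these genes the peak serves was not tested. The HIF-1α peak assigned to SLC38A10 lay downstream of the gene, 8.42 kb from the start of a transcript inside the gene, 56.3 kb from the gene start and 0.089 kb from the start of NDUFAF8. HIF-2α without HIF-1α was listed within 10 kb of SLC1A5 (0.832 kb upstream of a start), SLC7A1, SLC1A2 (4.29 kb downstream) and SLC3A1 (5.83 to 6.07 kb downstream), with no core at SLC1A2 and SLC3A1. Just outside that distance lay the HIF-2α peaks of SLC38A2, 10.8 kb upstream in HIF-2α overexpressing cells and 11.3 kb upstream in HIF-1α re-expressing cells.

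**Figure D5:**
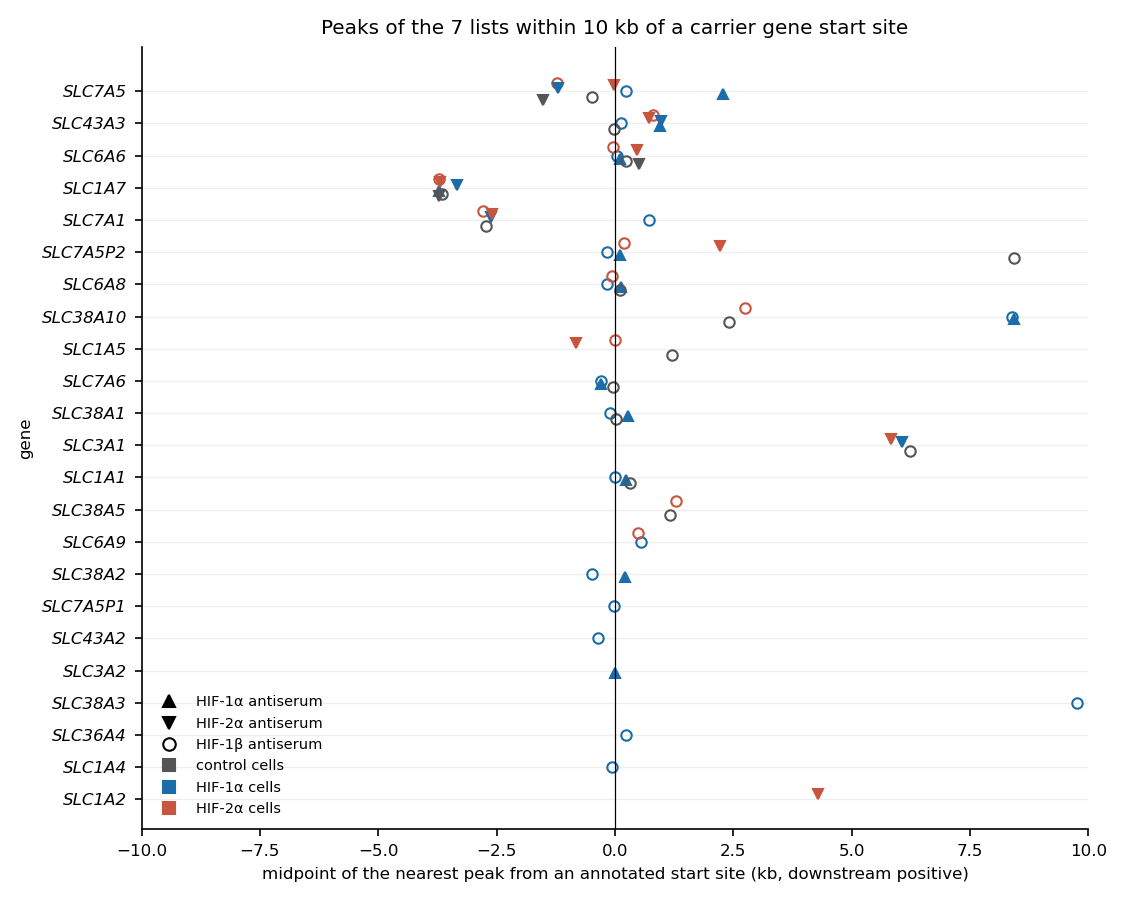
Distance in kb from the midpoint of the nearest peak of each list to the nearest annotated start site for the 23 carriers with a peak within 10 kb, with the antiserum as the shape and the cell pool as the colour of the point. SLC7A5 shows all 7 lists, the points of SLC1A7 gather 3.34 to 3.72 kb upstream, and HIF-1α (triangles up) lies within 0.303 kb of the start at SLC1A1, SLC38A1, SLC38A2, SLC3A2, SLC6A6, SLC6A8 and SLC7A6.

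Carriers outside these families and the genes through which amino acids reach mTORC1, the kinase that couples them to growth, were followed as lists. Of 17 other amino acid carriers, among them mitochondrial and vesicular ones, 12 were tested and none passed in edgeR with or without the block in any comparison. Without the block their median log2 fold change was -0.27 in HIF-1α re-expressing against control cells, beside 0.04 over all genes. It was -0.18 in HIF-2α overexpressing against control cells, beside -0.02, and -0.12 between the HIF pools, beside 0.02. Of 30 genes of the mTORC1 branch 29 were tested, and none passed without the block. With it, 3 of 29 passed in HIF-1α re-expressing against control cells, against the 7.96% of all genes given above. LAMTOR2 and LAMTOR4, subunits of the Ragulator complex on the lysosome, fell by 0.70 (SE 0.164, adjusted p = 0.0422) and 0.92 (SE 0.150, adjusted p = 0.0314) on the log2 scale, and SESN3, a sestrin, rose by 2.42 (SE 0.605, adjusted p = 0.0455). SESN3 was low, at 0.155, 0.284 and 0.964 CPM in control cells and 0.907, 1.11 and 6.01 CPM in HIF-1α re-expressing cells. These groups overlapped, and library 3 stood far above the other HIF-1α re-expressing libraries. RPTOR, the subunit that binds mTORC1 substrates, was at 68.4, 50.0 and 48.2 CPM in control cells and at 68.8, 66.8 and 43.1 CPM in HIF-1α re-expressing cells. In HIF-2α overexpressing cells it was at 101, 120 and 132 CPM. The log2 difference, HIF-1α minus HIF-2α, was -1.01 with the block (SE 0.227, adjusted p = 0.0345). Without the block it was -0.98 and did not pass (SE 0.242, adjusted p = 0.117). With HIF-2α against control cells RPTOR did not pass in edgeR, at 1.08 without the block (SE 0.243, adjusted p = 0.490) and 1.11 with it (SE 0.227, adjusted p = 0.0991). With the block RPTOR was 1 of 29 genes of this branch to pass between the HIF pools, against 5.93% of all genes.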

How the data were processed

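The RNA-seq libraries (3 per pool) were directional and made from polyadenylated RNA. The authors aligned the reads with TopHat2 2.0.8b and Bowtie 1.0.0 and counted them per gene with HTSeq 0.5.4p3, and the deposited values are raw counts. For ChIP-seq the authors aligned with BWA 0.7.5a-r405 to GRCh37 and deposited peaks as windows of 2500 bp without scores.

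Here the counts of all 9 libraries were fitted with edgeR 4.0.16 (TMM, filterByExpr, quasi-likelihood test, R 4.3.3) with the pool as the only term, and p-values were adjusted over all 14225 genes by the Benjamini-Hochberg method at 0.05. Libraries with the same replicate number deviated together (correlation 0.348 to 0.652 over 9 pairs, against -0.478 to 0.0281 over 18 pairs of different numbers), so the fit with the number as a block is given where it changes a call. Deviations from a pool mean cancel within a pool, so negative values between different numbers follow in part from positive ones of the same number. DESeq2 1.42.0, other scaling, no filter, fewer libraries and other peak distances were alternatives. The fits were tested on simulated data. CPM used TMM library sizes. The totals per library limit precision for genes of low counts, and intervals and floors cover counting error only. Peak positions were set against GENCODE starts on GRCh37, and 22042 of 23441 symbols matched. Carriers were named by rule if they passed in any comparison with or without the block, were tested and had a HIF-1α or HIF-2α peak within 10 kb of a start, were among the 8 highest in mean CPM per kb, or were SLC7A5, SLC3A2, SLC1A5, SLC38A2 or SLC7A1, which gave 17. Others are marked where they appear, except SLC1A4 and SLC43A1, which were outside this rule and are given because of their values. The members and lists were chosen with earlier results of these data known. The 3 input libraries were not used here.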

Additional observations from a re-analysis of the deposited data

Results flagged for a closer look

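The HIF-1α re-expressing and HIF-2α overexpressing cells differed in a test of the difference itself, with the replicate block in edgeR, for 3 carriers. The log2 difference, HIF-1α minus HIF-2α, was -3.29 for SLC7A2 (adjusted p = 0.00348), -1.55 for SLC6A9 (adjusted p = 0.0199) and 4.79 for SLC38A11 (adjusted p = 0.0163), the last resting on 46 counts against 1 and depending on the prior count. For SLC7A5 (-1.10, adjusted p = 0.106), SLC7A6 (-0.55, adjusted p = 0.0972) and SLC43A1 (1.00, adjusted p = 0.0950) all 3 pairs moved one way against control in one pool and the opposite way in the other, but the test of the difference did not pass. Both movements are measured against the same 3 control libraries. With HIF-1α, single pairs barely moved, such as number 1 for SLC7A5 (ratio 0.956) and number 2 for SLC43A1 (ratio 1.03). How many of all genes show this pattern was not determined, so it cannot be called particular to carriers.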

How the results depend on the processing

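In HIF-1α re-expressing against control cells the number of genes called was 0, and it was 753 with DESeq2, 1132 with the replicate block and 0 to 295 when a library or number was left out. Carriers called higher there were 1 with DESeq2, 1 with the replicate block and 0 to 1 in the leave-outs. In HIF-2α overexpressing against control cells 0 genes were called, and 65 were with DESeq2, 1 without the filter, 38 with the replicate block, 2 with only both pools in the fit and 0 to 30 in the leave-outs, with 1 carrier higher with DESeq2, 1 with the replicate block and 0 to 1 in the leave-outs. Between HIF-1α re-expressing and HIF-2α overexpressing cells 7 genes were called, and 649 were with DESeq2, 82 without the filter, 843 with the replicate block, 0 with only both pools and 0 to 386 in the leave-outs. Carriers called higher there were 2 with DESeq2, 1 with the replicate block and 0 to 1 in the leave-outs, and carriers called lower 2 with DESeq2, 1 without the filter, 2 with the replicate block and 0 to 2 in the leave-outs. Over the alternatives the adjusted p of SLC1A1 ran from 0.0263 to 0.347, that of SLC7A2 from 3.24e-04 to 1.00 against control and from 5.93e-08 to 0.213 between the HIF pools, that of SLC6A9 from 0.0199 to 0.949 and that of SLC38A11 from 0.0163 to 0.327. Of the 51 log2 fold changes of the 17 named carriers, 21 (in 11 carriers) changed sign in at least 1 alternative, and 18 of all 39 carriers were above 0 in HIF-1α re-expressing against control cells but 29 without control library 1. Their ranges over the leave-outs in HIF-1α re-expressing against control cells were -0.77 to 0.04 for SLC1A5, -0.54 to 0.47 for SLC38A1 (0.01 with the replicate block), -0.10 to 0.28 for SLC38A10, -1.67 to 0.19 for SLC3A2, -0.37 to 0.02 for SLC43A3, -0.31 to 0.85 for SLC6A8, -3.30 to 1.10 for SLC6A9 and -0.28 to 0.34 for SLC7A1. In HIF-2α overexpressing against control cells they were -0.46 to 0.20 for SLC1A5, -0.13 to 0.74 for SLC38A1, -0.24 to 0.54 for SLC38A2, -0.65 to 0.29 for SLC3A2, -0.02 to 0.47 for SLC43A3 and -1.42 to 2.18 for SLC6A9. Between the HIF pools they were -0.63 to 0.15 for SLC1A5, -0.27 to 0.02 for SLC38A10, -0.29 to 1.17 for SLC3A1, -1.38 to 0.35 for SLC3A2, -0.35 to 1.52 for SLC6A6, -0.73 to 0.36 for SLC6A8 (-0.04 with the replicate block) and -3.47 to 0.50 for SLC6A9. With DESeq2 the replicate number passed for 3963 genes (26.3%) and for 14 of 40 carriers (35%). Within 50 kb, 26 carriers had a HIF-1β peak in control cells (35.1% of all genes), 22 a HIF-1α peak (39.3%) and 29 a HIF-1β peak (43.9%) in HIF-1α re-expressing cells, and 16 a HIF-2α peak in HIF-2α overexpressing cells (22.4%). The cause of these shifts was not tested. Low counts limit SLC38A11 and the genes under 1 CPM.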
